A study of Mus musculus with 6 samples.

Results

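The 8 genes described here, Lcn2, Havcr1, Spp1, Clu, Vcam1, Sox9, Cd44 and Cdkn1a, are genes of injured kidney tubule cells. They were chosen by symbol, with earlier results of these data known. All 8 were among the 17684 genes of the gene table, and all 8 passed the filter of at least 10 counts in at least 3 libraries that left 13679 genes for testing. They were compared between kidneys of 3 mice of the Db group and 3 mice of the Db + Ato10 group, 1 library per mouse. All 6 mice were db/db, which lack a working leptin receptor and become obese and diabetic, on the strain labelled C57 BLKS/L, and were 50 weeks old. The Db group had received normal saline for 40 weeks. The Db + Ato10 group had received atorvastatin, an inhibitor of the rate-limiting enzyme of cholesterol synthesis, at 10 mg/kg per day of dosing for 40 weeks. By the study's methods the mice were male, and the drug was given by gavage on a fixed run of days in every week. The study reports that many treated mice died before the end of the course. Fewer mice of the Db group remained late in the course as well, so the kidneys of both groups come from survivors. No non-diabetic kidney was sequenced in these libraries, so both groups share the db/db background.

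When tubule epithelium is damaged, surviving cells lose part of their transport programme and switch on a set of secreted, adhesion and repair genes. Lcn2 encodes lipocalin 2 (NGAL), an iron-siderophore binding protein, and Havcr1 encodes KIM-1, a phosphatidylserine receptor with which proximal tubule cells take up dying neighbours, and both proteins are measured in urine as markers of tubular injury. Spp1 encodes osteopontin, a secreted ligand of integrins and CD44, and Clu encodes clusterin, a secreted chaperone. Vcam1 and Cd44 are cell surface adhesion molecules, Sox9 is a transcription factor of regenerating tubule cells, and Cdkn1a encodes p21, an inhibitor of cyclin-dependent kinases that arrests the cell cycle.

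Library totals ranged from 11381678 to 14667909 counts, and 3 counts equalled 0.198 to 0.260 CPM, a count divided by the TMM-normalized size of its library. Lower levels could not be detected at such depths, and these floors are for counting error alone. Defining tubule genes were present in every library: the summed level of 14 proximal tubule markers ranged from 15760 to 21250 CPM in the Db group and was 2653, 10870 and 19330 CPM in Db + Ato10 replicates 1, 2 and 3. Across genes, the Spearman correlation of log2 CPM with the Db libraries was 0.978 to 0.985 for Db + Ato10 replicate 3 and 0.834 to 0.863 for Db + Ato10 replicate 1. Db replicate 1 had 2 counts over 4 Y-linked genes, against 1419 to 2116 in the other 5 libraries, which goes against a male mouse. Without it, the edgeR log2 fold changes of the 8 genes stayed positive, from 1.03 for Clu to 6.41 for Lcn2, and edgeR's quasi-likelihood test called 0 of 8, with a Benjamini-Hochberg adjusted p of 0.588 for each. In whole kidney RNA, fewer cells of a type and less RNA per cell cannot be told apart.

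Promoter sequences are shown for Cdkn1a and Havcr1, each with 2 main transcripts that start at separate places, because each start has a transcript with reads of its own (their values follow those of the genes). RefSeq promoter windows, on build GRCm38.p6, were found for 5 of the 8 genes (9 windows); Clu, Vcam1 and Sox9 had none. The deposited files hold no coordinates. Each line gives bases upstream of a start, 5′ to 3′ on the plus strand, without bases that GENCODE annotates as exon on that strand, and capitals mark matches to the motifs named after the lines.
Cdkn1a, upstream start, chr17:29090729-29090975: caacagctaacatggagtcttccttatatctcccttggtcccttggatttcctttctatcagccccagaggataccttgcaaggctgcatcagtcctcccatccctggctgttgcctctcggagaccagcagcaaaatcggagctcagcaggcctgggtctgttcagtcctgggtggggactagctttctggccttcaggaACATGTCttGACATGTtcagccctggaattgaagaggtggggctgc
Cdkn1a, downstream start, chr17:29093519-29093768: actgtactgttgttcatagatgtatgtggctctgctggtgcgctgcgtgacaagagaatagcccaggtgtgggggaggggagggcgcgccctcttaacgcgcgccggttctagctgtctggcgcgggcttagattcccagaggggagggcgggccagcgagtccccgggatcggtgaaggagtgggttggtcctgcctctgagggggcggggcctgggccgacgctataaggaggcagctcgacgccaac
Havcr1, upstream start, chr11:46739973-46740060: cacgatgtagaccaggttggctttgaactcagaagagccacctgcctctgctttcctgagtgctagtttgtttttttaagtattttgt
Havcr1, downstream start, chr11:46750261-46750510: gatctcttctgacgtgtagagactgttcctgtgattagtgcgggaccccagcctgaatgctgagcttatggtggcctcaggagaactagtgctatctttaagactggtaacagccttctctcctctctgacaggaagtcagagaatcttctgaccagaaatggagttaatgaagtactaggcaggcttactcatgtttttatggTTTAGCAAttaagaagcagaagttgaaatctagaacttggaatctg
The Cdkn1a starts lie 2790 bases apart on chromosome 17, and the first and second Havcr1 windows end at starts 10288 bases apart on chromosome 11. Both strands of the 250 bases before each start were searched for ACATGTC (a core of the p53 element, chosen after the Cdkn1a window had been seen), TGANTCA (AP-1), TTCNNNGAA (STAT), TTGCNNAA (C/EBP) and TATAAA (the element bound by TBP). ACATGTC was found in 2 copies before the upstream Cdkn1a start, at -49 to -43 and -40 to -34 from it, and in 1.62% of all 32851 windows. TTGCNNAA was found before the downstream Havcr1 start, at -46 to -39, before the Lcn2 start at -216 to -209 and before the second Spp1 start at -156 to -149, so in 3 of the 9 member windows, and in 9.56% of all windows. The second Spp1 window had 0 bases free of annotated exon on its strand. The Lcn2 match lay outside the longest exon-free stretch of its window, 53 bases. TGANTCA and TTCNNNGAA were in none of the 9 member windows and in 6.75% and 7.02% of all windows, and TATAAA was in 1 member window (Spp1) and in 12.4% of all windows. These are matches of letters, and binding was not tested. The ACATGTC pair lies upstream of both Cdkn1a starts, and its part in either transcript was not tested. GENCODE places an exon of AC167363.2 on the opposite strand, overlapping the downstream Cdkn1a window. Whether it also overlaps a Cdkn1a exon was not examined. If it does, reads of that RNA could be counted with Cdkn1a, since the strand setting of the counting is not given in the sources used here.

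Taken one by one, all 8 genes had a higher mean in the Db + Ato10 group, with edgeR log2 fold changes (Db + Ato10 minus Db) from 1.08 for Clu to 6.89 for Lcn2 and a median of 3.02, beside a median of -0.0063 over the 13679 genes tested. In 6 of 8 genes every Db + Ato10 library lay above every Db library, a pattern seen in 12% of all tested genes, and in Vcam1 and Cdkn1a the groups overlapped. The spread within the groups was wide. A gene was called when its fold change was over 1.5 and its Benjamini-Hochberg adjusted p over all tested genes was under 0.05. edgeR's quasi-likelihood test called 0 of the 8 and 0 genes in all (0%), with 7 of the 8 at an unadjusted p under 0.05 and higher, beside 11.2% of all genes. DESeq2 on the same counts called 7 of 8, all but Cdkn1a, and called 5.17% of all genes as higher. When each library was left out in turn, DESeq2 called 4, 7 and 4 of the 8 (Db replicates 1 to 3) and 4, 4 and 8 (Db + Ato10 replicates 1 to 3), beside 1.18%, 3.88%, 1.3%, 1.45%, 2.22% and 11.8% of all genes as higher, and edgeR called 4 of the 8, beside 5.96% of all genes, when Db + Ato10 replicate 3 was left out and 0 when any other library was. An exact two-sided permutation test of 3 against 3 libraries cannot give a p under 0.1, which it gave for the 6 genes whose groups did not overlap. Because the 8 genes were chosen with earlier results of these data known, setting them beside all genes is no test of the set.

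**Figure D1:**
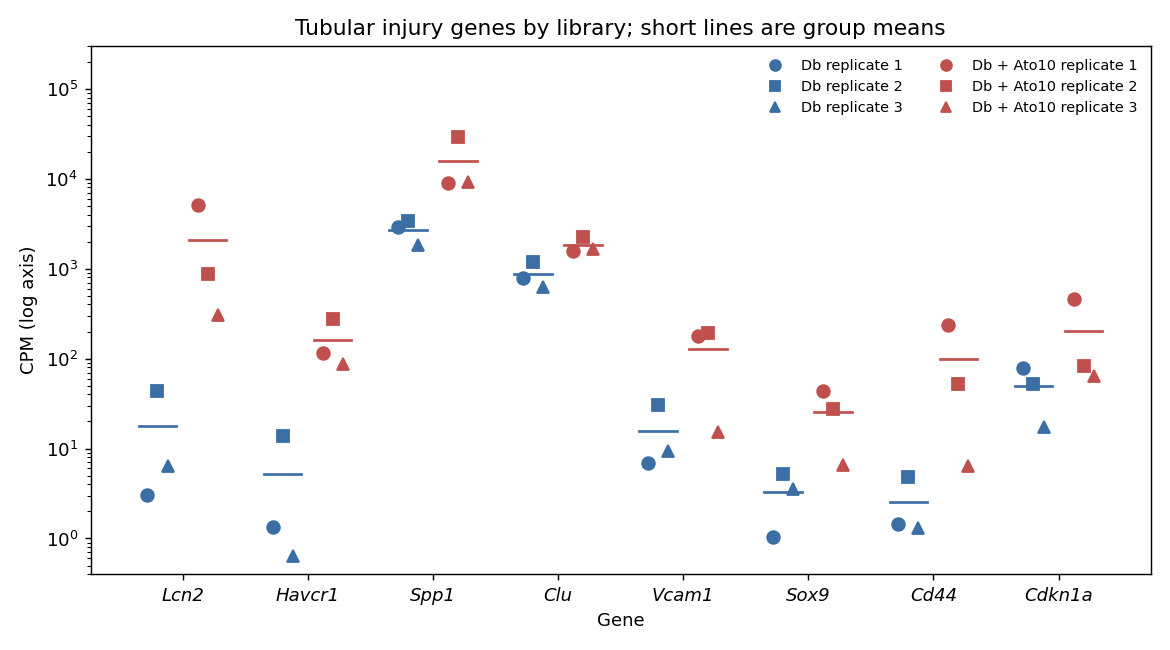
CPM of the 8 tubular injury genes in each library on a log axis, blue for Db and red for Db + Ato10, with marker shape for the replicate and short lines for group means (n = 3). The Db + Ato10 libraries lie above the Db libraries for Lcn2, Havcr1, Spp1, Clu, Sox9 and Cd44, and the groups overlap for Vcam1 and Cdkn1a.

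Lcn2 (NCBI Gene 16819), the secreted lipocalin, stood at 3.02, 43.5 and 6.46 CPM in Db replicates 1, 2 and 3 and at 5088, 868 and 308 CPM in Db + Ato10 replicates 1, 2 and 3. Db replicate 2 was the high library of its group, and still the lowest Db + Ato10 library lay 7.09 times above it. The Db libraries averaged 17.7 ± 22.5 CPM and the Db + Ato10 libraries 2088 ± 2613 CPM (SD, n = 3), so the difference was smaller than the larger SD. The log2 fold change was 6.89 ± 1.64 (SE; edgeR quasi-likelihood test, adjusted p = 0.239), the 30th largest of 13679 genes. Leaving out Db + Ato10 replicate 1 gave 5.08, and leaving out Db replicate 2 gave 8.78. DESeq2 called it with all 6 libraries (adjusted p = 0.00054) and with each library left out (DESeq2 adjusted p at most 0.0298).

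Neutrophils also store lipocalin 2 in their granules, and neutrophil markers moved with Lcn2. The summed level of 11 neutrophil genes was 6.30 to 10.5 CPM in the Db libraries and 10830, 168 and 30.3 CPM in Db + Ato10 replicates 1, 2 and 3. In Db + Ato10 replicate 3, beside 3915 counts of Lcn2, the granule genes Mpo, Elane and Camp and the surface marker Ly6g had 0 counts each, which allows up to 0.236 CPM. Of the other 7 markers in that library, Ngp had 2 counts, Cxcr2 9, Retnlg 10, S100a8 27, Csf3r 30, S100a9 68 and Ltf, a granule gene that epithelia also express, 238. In CPM, S100a8, S100a9, Csf3r, Retnlg and Ltf lay above every Db library there, and the other markers did not. In Db + Ato10 replicate 2 the 11 markers had between 2 (Elane) and 917 counts (Ltf), beside 12849 counts of Lcn2. In Db + Ato10 replicate 1 they had between 294 (Elane) and 80237 counts (S100a9), beside 77244 counts of Lcn2. How much of the Lcn2 RNA came from neutrophils was not tested.

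Havcr1 (NCBI Gene 171283), the KIM-1 gene, stood at 1.35, 13.6 and 0.646 CPM in Db replicates 1 to 3, which are 17, 157 and 8 counts, and at 115, 274 and 87.9 CPM in Db + Ato10 replicates 1 to 3. Unlike Lcn2, its Db + Ato10 libraries lay close together, with the highest 3.12 times the lowest, and the highest was replicate 2. The lowest of them lay 6.46 times above the highest Db library. The Db libraries averaged 5.20 ± 7.29 CPM and the Db + Ato10 libraries 159 ± 101 CPM (SD, n = 3), a difference larger than either SD. The log2 fold change was 4.94 ± 1.18 (SE; edgeR quasi-likelihood test, adjusted p = 0.239). Leaving out Db + Ato10 replicate 2 gave 4.32, leaving out Db replicate 2 gave 7.30, and DESeq2 called it with all libraries and with each left out (DESeq2 adjusted p at most 0.0411). Proximal tubule cells are the known renal source of KIM-1, and the proximal tubule marker sum in the Db + Ato10 libraries ran from 2653 to 19330 CPM while Havcr1 ran from 87.9 to 274 CPM.

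Spp1 (NCBI Gene 20750), the osteopontin gene, was already abundant in the Db kidneys, at 2909, 3368 and 1838 CPM, and stood at 8906, 28860 and 9124 CPM in Db + Ato10 replicates 1 to 3. Replicate 2 held the highest level, and the other two were close to each other and 2.64 times or more above the highest Db library. The means were 2705 ± 785 CPM and 15630 ± 11460 CPM (SD, n = 3), a difference larger than either SD, and the log2 fold change was 2.53 ± 0.67 (SE; edgeR quasi-likelihood test, adjusted p = 0.239). It was 1.75 without Db + Ato10 replicate 2. DESeq2 called it with all 6 libraries (adjusted p = 0.00027) and with each library left out (DESeq2 adjusted p at most 0.0223). Spp1 alone took 0.183% to 0.341% of all counts in the Db libraries and 0.928%, 2.91% and 0.882% in Db + Ato10 replicates 1 to 3.

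Clu (NCBI Gene 12759), the clusterin gene, had the smallest difference of the 8 and the tightest Db + Ato10 replicates, whose highest was 1.44 times the lowest. It stood at 788, 1180 and 633 CPM in the Db libraries and at 1580, 2274 and 1662 CPM in the Db + Ato10 libraries. The groups were separated by a gap of 1.34 times, and the means were 867 ± 282 CPM and 1839 ± 379 CPM (SD, n = 3), a difference larger than either SD. The log2 fold change was 1.08 ± 0.32 (SE; edgeR quasi-likelihood test, adjusted p = 0.239), and it ran from 0.90 to 1.37 with 1 library left out. DESeq2 called it with all 6 libraries (adjusted p = 0.0117) but not without Db replicate 1, Db replicate 3 or Db + Ato10 replicate 2 (highest DESeq2 adjusted p = 0.161).

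The adhesion genes differed widely between the treated kidneys. Vcam1 (NCBI Gene 22329), which binds the integrins of leukocytes, stood at 6.83, 30.4 and 9.45 CPM in the Db libraries and at 177, 195 and 15.2 CPM in the Db + Ato10 libraries. Db + Ato10 replicate 3 lay inside the range of the Db group, and the other two lay far above it. The means were 15.6 ± 12.9 CPM and 129 ± 98.9 CPM (SD, n = 3), and the log2 fold change was 3.05 ± 1.01 (SE; edgeR quasi-likelihood test, adjusted p = 0.239), or 3.99 without Db replicate 2. Without Db + Ato10 replicate 3 it was 3.58 and edgeR's quasi-likelihood test called it (adjusted p = 0.0353). DESeq2 called it with all libraries (adjusted p = 0.0125) and lost it without Db replicate 1 or 3 or Db + Ato10 replicate 1 or 2 (highest DESeq2 adjusted p = 0.336). Endothelium also carries VCAM-1, and the summed level of 7 endothelial markers was 423 to 523 CPM in the Db libraries. It was 540, 211 and 451 CPM in Db + Ato10 replicates 1 to 3. The part of endothelium in the Vcam1 difference was not tested.

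Cd44 (NCBI Gene 12505), a receptor of hyaluronan and osteopontin, was low in the Db libraries, at 1.43, 4.85 and 1.29 CPM (18, 56 and 16 counts), and stood at 236, 52.7 and 6.38 CPM in Db + Ato10 replicates 1 to 3. The Db + Ato10 libraries differed among themselves by 37.0 times, the widest range of the 8 genes in either group, and the lowest lay 1.31 times above the highest Db library. The means were 2.53 ± 2.02 CPM and 98.5 ± 122 CPM (SD, n = 3), a difference smaller than the larger SD. The log2 fold change was 5.29 ± 1.37 (SE; edgeR quasi-likelihood test, adjusted p = 0.239). Leaving out Db + Ato10 replicate 1 gave 3.58, leaving out Db replicate 2 gave 6.17, and leaving out Db + Ato10 replicate 3 gave 5.85, where edgeR's quasi-likelihood test called it (adjusted p = 0.0287). With DESeq2 it was called with all libraries (adjusted p = 8.48e-05) and lost without Db + Ato10 replicate 1 (adjusted p = 0.0863).

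Macrophages and fibroblasts carry CD44 as well, and macrophages can make osteopontin. The summed level of 10 macrophage markers was 135 to 242 CPM in the Db libraries and 5604, 1325 and 287 CPM in Db + Ato10 replicates 1 to 3, and 8 of the 10 did not overlap between the groups, all higher, as 12% of all genes were. For 7 fibroblast markers it was 91.9 to 170 CPM in the Db libraries and 1498, 623 and 224 CPM in the Db + Ato10 libraries. Both sums ranked in the same order of libraries as Cd44 within the Db + Ato10 group, and their part in the Cd44 difference was not tested. Spp1 was highest in Db + Ato10 replicate 2 and the macrophage sum in replicate 1. The part of macrophages in the Spp1 difference was not tested.

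Sox9 (NCBI Gene 20682), the repair transcription factor, stood at 1.03, 5.20 and 3.55 CPM in the Db libraries (13, 60 and 44 counts) and at 43.7, 27.2 and 6.54 CPM in the Db + Ato10 libraries. Replicate 3 was 1.26 times the highest Db library, a gap that rests on 83 against 60 counts. The means were 3.26 ± 2.10 CPM and 25.8 ± 18.6 CPM (SD, n = 3), a difference larger than either SD, and the log2 fold change was 2.99 ± 0.82 (SE; edgeR quasi-likelihood test, adjusted p = 0.239). Leaving out Db + Ato10 replicate 1 gave 2.39, and leaving out Db + Ato10 replicate 3 gave 3.45, where edgeR's quasi-likelihood test called it (adjusted p = 0.0338). DESeq2 called it with all libraries (adjusted p = 0.00457) and lost it without Db replicate 1 or 3 or Db + Ato10 replicate 1 or 2 (highest DESeq2 adjusted p = 0.0682). Markers of basal squamous epithelium moved as well, and 8 such genes summed to 1.13 to 1.91 CPM in the Db group and to 162, 94.3 and 26.6 CPM in Db + Ato10 replicates 1 to 3. Their part in the Sox9 difference was not tested.

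Cdkn1a (NCBI Gene 12575), the p21 gene, was the one member that DESeq2 did not call with all 6 libraries. It stood at 77.6, 52.6 and 17.4 CPM in the Db libraries and at 457, 83.5 and 63.7 CPM in the Db + Ato10 libraries. Only Db + Ato10 replicate 1 stood far from the Db range, and replicate 3 lay below Db replicate 1. The means were 49.2 ± 30.3 CPM and 202 ± 222 CPM (SD, n = 3), a difference smaller than the larger SD, and the log2 fold change was 2.03 ± 0.90 (SE; edgeR quasi-likelihood test, adjusted p = 0.315; DESeq2 adjusted p = 0.112). Without Db + Ato10 replicate 1 the log2 fold change was 0.59. Without Db + Ato10 replicate 3, DESeq2 called it (adjusted p = 0.0124).

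**Figure D2:**
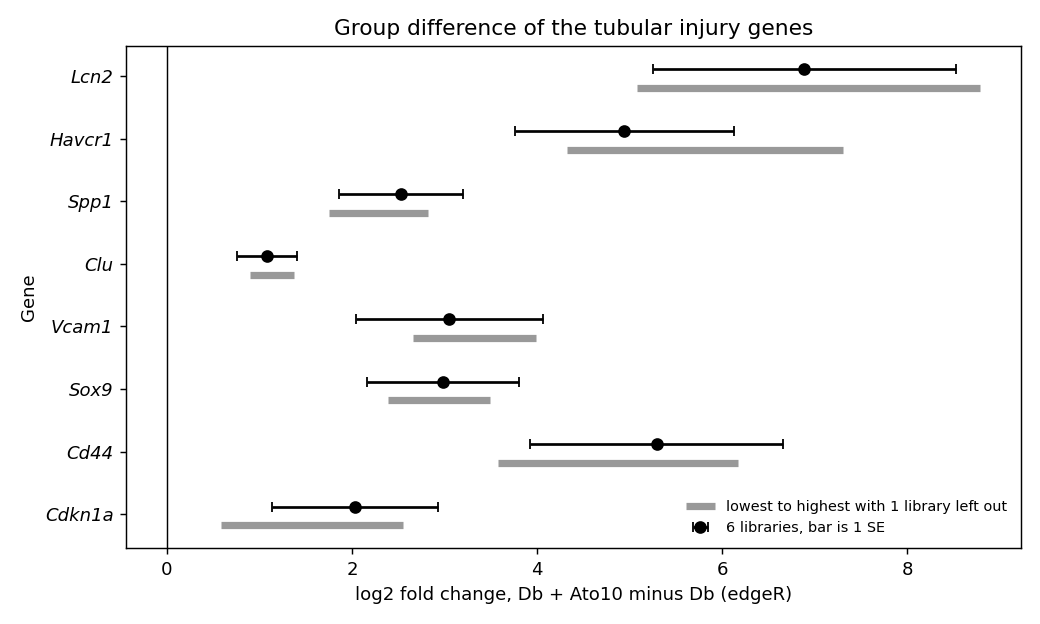
edgeR log2 fold change of each gene, Db + Ato10 minus Db; black points are the fit on all 6 libraries with bars of 1 SE, and grey bars run from the lowest to the highest value with 1 library left out. The values run from 1.08 for Clu to 6.89 for Lcn2, and the lowest left-out value is 0.59, for Cdkn1a.

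The libraries did not rank alike over the 8 genes. Among the Db + Ato10 libraries, replicate 1 was highest for Lcn2, Sox9, Cd44 and Cdkn1a, and replicate 2 was highest for Havcr1, Spp1, Clu and Vcam1. Replicate 3 was lowest for 6 genes, and replicate 1 was lowest for Spp1 and Clu. Relative to the Db mean of log2 CPM, replicate 3 stood at 4.99 for Lcn2 and 5.11 for Havcr1, yet at only 0.27 for Vcam1, 0.62 for Cdkn1a, 1.22 for Sox9 and 1.54 for Cd44. All 6 of these genes, the urinary markers Lcn2 and Havcr1 included, were lowest of the treated libraries in replicate 3. Within replicate 3, Lcn2 and Havcr1 still lay further above the Db mean than the adhesion, repair and arrest genes. Among the Db libraries, replicate 2 was highest for 7 of the 8 genes, with 2.17 for Lcn2 and 2.44 for Havcr1, and replicate 1 was highest for Cdkn1a. Leaving out 1 library changed how many of the 8 genes were free of overlap. The number was 7 without Db replicate 1 or 2, 6 without Db replicate 3 or Db + Ato10 replicate 1 or 2, and 8 without Db + Ato10 replicate 3, beside 14.5% to 25.7% of all genes.

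**Figure D3:**
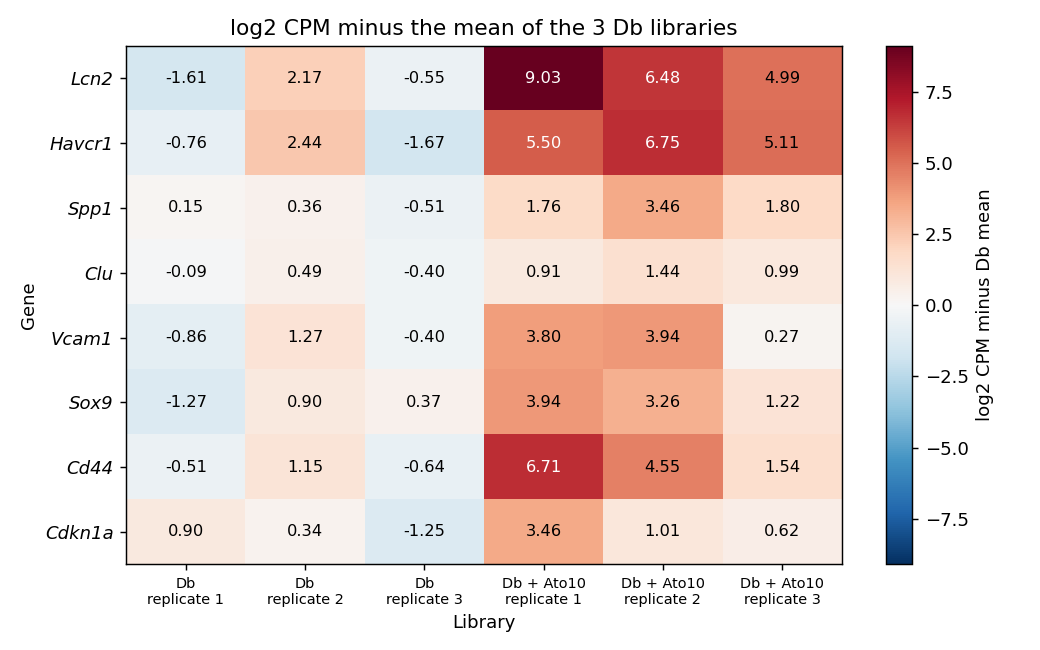
log2 CPM of each gene in each library minus the mean of the 3 Db libraries, with the value written in each cell and red for above and blue for below that mean. Db + Ato10 replicate 3 is far above the mean for Lcn2 (4.99) and Havcr1 (5.11) and near it for Vcam1 (0.27) and Cdkn1a (0.62).

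Levels can be compared between genes only per transcript length, so the deposited TPM was used for that. In the Db group the mean TPM ran in the order Spp1 (3576), Clu (877), Cdkn1a (46.8), Lcn2 (42.3), Vcam1 (8.04), Havcr1 (4.78), Sox9 (1.37) and Cd44 (0.993), and the library ranges of neighbours overlapped for every pair from Cdkn1a on. In the Db + Ato10 group the order of mean TPM was Spp1 (19910), Lcn2 (4531), Clu (1763), Cdkn1a (175), Havcr1 (142), Vcam1 (62.9), Cd44 (34.9) and Sox9 (10.1), and the ranges of all neighbours overlapped except for Clu and Cdkn1a. Lcn2 moved from TPM rank 9007, 1464 and 6634 of the genes in Db replicates 1 to 3 to rank 7, 42 and 233 in Db + Ato10 replicates 1 to 3. In Db + Ato10 replicate 1 its TPM of 10827 exceeded the 10484 of Spp1. Spp1 ranked 17, 11 and 39 in the Db libraries and 8, 2 and 3 in the Db + Ato10 libraries. The 8 genes together took 0.25% to 0.476% of all counts in the Db group and 1.73%, 3.29% and 1.09% in Db + Ato10 replicates 1 to 3.

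The transcript table listed 24 transcripts of the 8 genes, of which 15 passed the same filter. With edgeR's quasi-likelihood test 0 of the 15 and 0 of 30175 transcripts were called (0%). By that test 11 of the 15 were at an unadjusted p under 0.05 and higher, beside 2471 of the 30175 transcripts in either direction. DESeq2 called 10 of the 15, beside 2.95% of all transcripts in either direction. Both counts include NM_001166632.1 of Havcr1 and XM_006498649.2 of Cd44, which had fewer than 10 counts in every Db library. These passed the filter only through the Db + Ato10 libraries, so their direction was fixed by the filter. Lcn2, Sox9 and Vcam1 had 1 transcript each. For Clu at least 99% of the reads, and for Spp1 between 95.7% and 96.4%, were assigned to a single transcript in every library. How reads are split between transcripts is an estimate by the authors' counting.

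The reads of Cdkn1a were assigned to transcripts of the upstream and downstream starts shown above. NM_007669.5, from the downstream start, held 937, 559 and 176 expected counts in the Db libraries and 6896, 1223 and 793 in the Db + Ato10 libraries. NM_001111099.2, from the upstream start, held 40.2, 48.1 and 39.0 in the Db libraries and 44.7, 14.2 and 15.7 in the Db + Ato10 libraries, with the groups overlapping. Their log2 fold changes were 2.18 ± 0.99 and -0.97 ± 0.63 (SE; edgeR quasi-likelihood test, adjusted p = 0.636 and 0.74). The difference between the 2 transcripts was not tested. The upstream transcript made up 4.12%, 7.92% and 18.1% of Cdkn1a reads in Db replicates 1 to 3 and 0.645%, 1.14% and 1.94% in Db + Ato10 replicates 1 to 3, without overlap between the groups.

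For Havcr1, NM_001166631.1 from the downstream start held 15.8, 157 and 0 expected counts in the Db libraries and 971, 3163 and 997 in the Db + Ato10 libraries. NM_001166632.1 from the upstream start held 1.19, 0 and 8 in the Db libraries and 773, 885 and 116 in the Db + Ato10 libraries. Reads were thus assigned to both transcripts in all 3 treated kidneys, with the upstream transcript at 44.1%, 21.8% and 10.4% of Havcr1 reads. The log2 fold change of the upstream transcript was 7.34 ± 1.33 (SE; edgeR quasi-likelihood test, adjusted p = 0.359), and its size depends on the prior count because the Db libraries are near 0. For Cd44, NM_001039151.1 held all reads in the Db libraries, and 93.1%, 73.7% and 48.5% in Db + Ato10 replicates 1 to 3, where other splice forms were listed with up to 128 expected counts. These other forms were listed at 0 in the Db libraries, which held 18, 56 and 16 Cd44 reads in all.

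**Figure D4:**
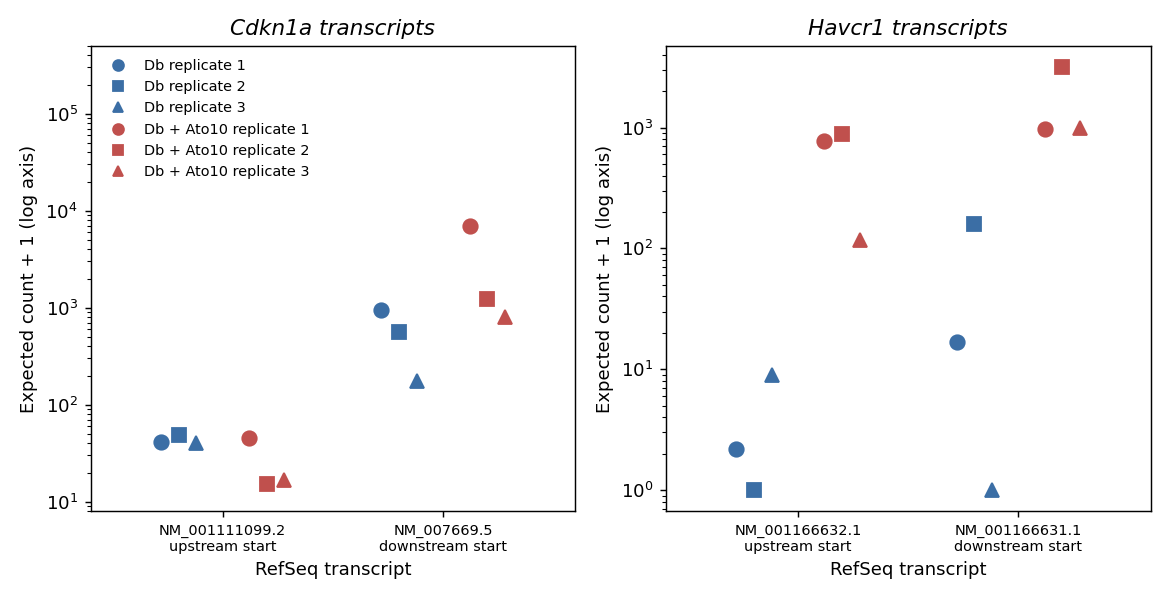
Expected counts plus 1 (log axis) of the Cdkn1a and Havcr1 transcripts that start upstream and downstream, by library, blue for Db and red for Db + Ato10. The upstream Cdkn1a transcript overlaps between the groups at 14.2 to 48.1 counts, while both Havcr1 transcripts are higher in all 3 Db + Ato10 libraries.

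A list of 40 other genes of kidney injury and repair was all in the table and tested. This list and those below were chosen, as the members were, with earlier results of these data known. edgeR called 0, with 31 at an unadjusted p under 0.05 and higher and 0 lower (11.2% and 5.71% of all genes), and DESeq2 called 25 as higher (5.17% of all genes). The log2 fold change was above 0 for 36 of 40, with a median of 1.80, and 26 of 40 did not overlap, all higher, a pattern of 12% of all genes. Krt20, a keratin switched on in injured proximal tubule, stood at 0.795, 2.95 and 0.565 CPM in the Db libraries and at 74.2, 70.6 and 18.0 CPM in the Db + Ato10 libraries, with a log2 fold change of 5.25 ± 0.83 (SE; edgeR quasi-likelihood test, adjusted p = 0.239). Timp1, an inhibitor of matrix metalloproteinases, stood at 0.397, 0.694 and 0.242 CPM in the Db libraries and at 131, 37.6 and 8.43 CPM in the Db + Ato10 libraries. With 5, 8 and 3 counts in Db replicates 1 to 3, Timp1 passed the filter only through the Db + Ato10 libraries. Krt20 and Timp1 followed different libraries, as Krt20 was about equal in Db + Ato10 replicates 1 and 2 and Timp1 was highest in replicate 1. Il34, a macrophage growth factor made by tubule cells, had a log2 fold change of 2.24 ± 0.46, and Dcdc2a, a microtubule-binding protein gene, 1.85 ± 0.39 (SE; edgeR quasi-likelihood test, adjusted p = 0.239 for both). The genes of the 3 fibrinogen chains, Fga, Fgb and Fgg, had log2 fold changes of 3.00, 3.36 and 3.22, and the 4 genes below 0 were Itgb6, Igfbp7, Sema5a and Mdk, at -0.57, -0.24, -0.16 and -0.067. These 7 were named after their values were seen.

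The binding partners of the members (receptors, ligands and complex members) were more mixed. Of 25 genes 22 were tested, since Timd4, Has1 and Has2 were below the filter, and their median log2 fold change was 0.34. edgeR called 0, with 7 higher and 2 lower at an unadjusted p under 0.05, and DESeq2 called 2 as higher, beside 11.2%, 5.71% and 5.17% of all genes. In 5 every Db + Ato10 library lay above the Db libraries and in 4 below, beside 12% and 11.3% of all genes. Mmp9, the gelatinase that binds lipocalin 2, stood at 0.397, 0.260 and 0.565 CPM in the Db libraries and at 245, 13.4 and 2.05 CPM in the Db + Ato10 libraries (log2 fold change 7.70 ± 2.03, SE; edgeR quasi-likelihood test, adjusted p = 0.239). With 5, 3 and 7 counts in Db replicates 1 to 3, Mmp9 passed the filter only through the Db + Ato10 libraries. The size of its log2 fold change rests on Db counts near 0. Mmp9 is also a neutrophil granule gene, and its Db + Ato10 libraries ranked as the neutrophil sum did. Itgb7, which encodes a chain of an integrin that binds VCAM-1, had a log2 fold change of 2.80 ± 0.89 with overlapping groups. Cdk2, a kinase that p21 inhibits, and Pcna, a replication clamp that p21 binds, had small differences of 0.58 ± 0.17 and 0.35 ± 0.12, with every Db + Ato10 library above every Db library (SE; edgeR quasi-likelihood test, adjusted p = 0.239 for each). Lrp2, which encodes megalin, the tubular receptor that takes up lipocalin 2 and clusterin, had a log2 fold change of -1.20 ± 0.74 with overlapping groups, and was named after its value was seen.

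Among p53 targets and other genes of cell cycle arrest, 16 of 17 were tested, with Cdkn2a below the filter. edgeR called 0, 6 were at an unadjusted p under 0.05 and higher, DESeq2 called 2, and 8 did not overlap, all higher, beside 11.2%, 5.17% and 12% of all genes in the same direction. The median log2 fold change was 0.74, and 14 of 16 were above 0. The p53 targets Mdm2, Zmat3 and Sesn2 had small log2 fold changes of 0.25, 0.22 and 0.14 with overlapping groups. The genes below 0 were Ccng1 at -0.079 and Cdkn2b at -0.21, also with overlapping groups. All of these were named after their values were seen. Trp53 itself stood at 26.5, 25.6 and 27.0 CPM in the Db libraries and at 49.3, 47.9 and 37.9 CPM in the Db + Ato10 libraries, with a log2 fold change of 0.77 ± 0.15 (SE; edgeR quasi-likelihood test, adjusted p = 0.239; DESeq2 adjusted p = 0.00212). Its groups were tight and clearly apart, unlike those of Cdkn1a. Phlda3, an inhibitor of AKT induced by p53, had 1.67 ± 0.51, Gadd45a, a DNA damage response gene, 1.16 ± 0.38, and Aen, a p53-induced nuclease, 0.71 ± 0.22 (log2 fold change ± SE; edgeR quasi-likelihood test, adjusted p = 0.239 for each), and none of the 3 overlapped between the groups.

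The genes whose log2 CPM over the 6 libraries was most like that of Lcn2, by Pearson's r among 13678 genes, were Pea15a, Qtrt1, Snrpg, Lrg1 and Serpina3n (r from 0.993 to 0.997). For Havcr1 they were Tbl1xr1, Clu, Il1f6, Gm3383 and H6pd (r from 0.988 to 0.990), so 1 other member, Clu, was among its closest 5. Lcn2 ranked 118th for likeness to Havcr1, and Havcr1 ranked 570th for likeness to Lcn2. The points share the 2 groups, so these values describe the group difference as much as the libraries within a group.

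The other marker lists moved as follows beside the 8 genes. The summed level of 7 thick ascending limb genes was 8698 to 9463 CPM in the Db libraries and 4761, 2295 and 6229 CPM in Db + Ato10 replicates 1 to 3, lowest in the library with the highest Spp1, Clu and Havcr1. For 11 genes of distal convoluted tubule and collecting duct it was 2395 to 2908 CPM and 1448, 876 and 1698 CPM. Podocyte genes (5) summed to 367 to 570 CPM and to 573, 197 and 373 CPM, and urothelial genes (5) to 3.64 to 6.71 CPM and to 17.2, 6.42 and 3.23 CPM. T cell genes (6 of 7 in the table) summed to 2.62 to 7.11 CPM and to 21.5, 18.4 and 3.78 CPM, and B and plasma cell genes (6) to 3.66 to 21.3 CPM and to 336, 100 and 12.3 CPM. Leukocyte markers were thus lowest of the treated kidneys in replicate 3. Lcn2 and Havcr1 were lowest of the treated kidneys there as well, at 4.99 and 5.11 above the Db mean on the log2 scale. The part of each cell type in the members' differences was not tested.

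**Figure D5:**
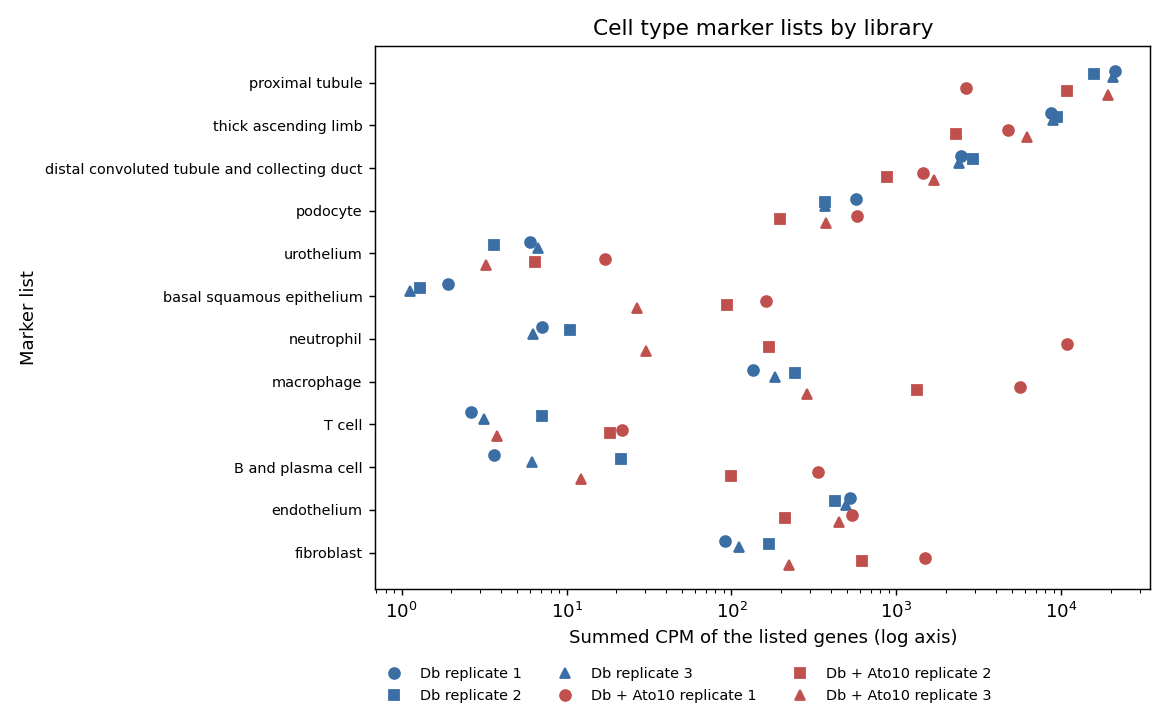
Summed CPM of each cell type marker list by library (log axis), blue for Db and red for Db + Ato10, with marker shape for the replicate. Neutrophil and macrophage sums reach 10830 and 5604 CPM in Db + Ato10 replicate 1 and 30.3 and 287 CPM in replicate 3, while the 3 tubule lists are lower in the treated libraries, with proximal tubule overlapping the Db range.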

How the data were processed

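Kidney RNA of 3 Db and 3 Db + Ato10 mice was sequenced, 1 library per mouse; groups and replicate numbers follow the sample labels, where the treatment characteristic gives saline or atorvastatin while the treatment protocol names atorvastatin for all 6 samples. The authors deposited expected counts for genes and for transcripts, estimates that were not normalized (91.3% of gene values were whole), and also FPKM and TPM, scaled to length and library size. The submitters' processing notes name HISAT, Bowtie2 2.2.5 and mm9, without their roles. Expected counts were rounded and compared with edgeR 4.0.16 in R 4.3.3 (TMM, quasi-likelihood F test, Benjamini-Hochberg over all tested genes). The SE was obtained by dividing the log2 fold change by the root of F. For log2 CPM a prior count of 2 was added. The thresholds are the study's, and its methods name no test. No 2 libraries held identical counts (0 pairs). The named genes were all 8 members and, from each list, the 4 with the smallest p when fewer were called, the members' tested transcripts and the 5 genes most like Lcn2 or Havcr1. The members, the lists and the promoter motifs were chosen with earlier results of these data known.

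Alternatives were DESeq2 1.42.0, limma-voom and limma 3.58.1 on log2(FPKM + 1), log2(FPKM + 0.1) and log2(TPM + 1), other normalizations, filters, thresholds and dispersions, the replicate number as a block, and each library left out in turn. Non-overlap with a library left out was chosen after seeing the data. The script was first tested on simulated data. With 3 libraries per group, precision is limited by the spread between mice, and 3 counts set the detection floor. Promoters are RefSeq windows on GRCm38.p6 matched by symbol, and exons are from GENCODE on GRCm38. Figures were drawn with matplotlib.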

Additional observations from a re-analysis of the deposited data

How the results depend on the processing

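The members kept a positive log2 fold change under every alternative run, except that Havcr1, with 8 counts in Db replicate 3, could not be tested under the filter of at least 10 counts in every library. Of the 8, DESeq2 called 7; with 1 library left out, edgeR and DESeq2 called between 0 and 8, and edgeR called 4 (Cd44, Lcn2, Sox9 and Vcam1) without Db + Ato10 replicate 3 and 0 without any other library. For the other injury genes DESeq2 called 25, and with 1 library left out edgeR called 0 to 21 and DESeq2 9 to 29 (9, 19 and 11 without Db replicates 1 to 3, 15, 15 and 29 without Db + Ato10 replicates 1 to 3). For binding partners DESeq2 called 2, and with 1 library left out DESeq2 called 0 to 7 and edgeR 0 to 1. For p53 and arrest genes DESeq2 called 2, and with 1 library left out DESeq2 called 1 to 7 and edgeR 0 to 1. For the members and each list the highest of these left-out counts came without Db + Ato10 replicate 3. There edgeR called 1106 and DESeq2 2614 of the 13517 genes tested, in either direction. Without any other library DESeq2 called 195 to 623 genes in all and edgeR 0, and DESeq2 called 884 with all 6 libraries. Of the member transcripts DESeq2 called 10. No member tested was called (0) by limma-voom, by limma on FPKM or TPM, or by edgeR with other scalings, filters, thresholds or bias-adjusted deviances. With the replicate number as a block edgeR called 0 of 8 as well, and its smallest adjusted p of any gene was 0.112 against 0.239. The deviations of same-numbered libraries had correlations of -0.15, 0.061 and 0.21. With 3 mice per group these cannot decide whether the numbers pair the mice. For Db replicate 1, whose Y-linked counts go against a male mouse, leaving it out left DESeq2 with 4 of 8 members, 9 of 40 injury genes, 1 binding partner and 1 p53 gene called.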
